A study of Oryctolagus cuniculus with 35 samples.

Results

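Collagens, laminins, elastic fibre proteins and their partners were followed in the lungs of rabbits with pneumococcal pneumonia. The genes were chosen by name: all collagen chains, all laminin chains, and fibronectin, fibrillins, fibulins, nidogens, EMILINs, lysyl oxidases, latent TGF-beta binding proteins, thrombospondins, SPARC proteins and matrix proteoglycans. Of the 23669 genes of the deposited tables, 71 carried such a name. Of these, 14 were listed at 0 in all 35 libraries (COL2A1, COL5A3, COL8A2, COL16A1, COL26A1, LAMC1, EMILIN3, FBN3, LOXL1, LOXL2, POSTN, TNC, THBS2 and BGN), and the other 57, of 13452 genes above 0, are described here. A value of 0 means here only that the table lists none, because BGN and LAMC1, which lung cells commonly use, were among them. Among the least read of the 57 were COL6A6, COL25A1 and COL9A1, with at most 5, 6 and 9 reads in any healthy or NaCl library. Further matrix genes, such as ELN, FBN1, COL6A1 and LAMA5, are not names in these tables and were not analysed here.

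The samples were lung pieces of 35 New Zealand rabbits in 5 groups of 7, with 1 mRNA library each; ages are not given. Healthy rabbits received NaCl. In the other groups pneumococcal pneumonia was combined with adverse mechanical ventilation. Treatment began 4 h after the bacteria: NaCl, human umbilical cord mesenchymal stem cells (MSC) into a vein, the antibiotic ceftaroline (20 mg per kg into muscle), or ceftaroline with MSC. Lung was taken 24 h after the bacteria, or at death where a rabbit died earlier, so the time is not the same for certain in every animal. The healthy group had neither infection nor ventilation, and the parts of these in a difference cannot be told apart.

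Fibrillar collagens such as types I and III are the tensile cables of the lung interstitium, made mainly by fibroblasts. Type IV collagen and laminins form the sheets of the basement membranes under alveolar epithelium and capillary endothelium, where the COL4A3 and COL4A4 chains belong to the mature alveolar and glomerular network and the COL4A1 and COL4A2 chains to the network found in nearly all basement membranes. Fibulins, EMILINs, fibrillins and lysyl oxidases assemble and cross-link elastic fibres, on which recoil depends. Fibronectin, versican and thrombospondin are matrix proteins known to be laid down early in injured tissue.

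Library depth ran from 7567008 to 33209729 reads, and the 57 genes took a median 1.40% of the reads in healthy and 1.04% in NaCl lungs. In counts scaled by the library total and by TMM factors, which allow for libraries dominated by a few genes (CPM), their summed level went the other way, with medians of 12120 and 14200 CPM and NaCl libraries from 7581 to 21450 CPM. In bulk tissue, fewer cells of a type and less RNA per cell cannot be told apart. The levels of cell type markers in these pieces differed with disease: all 6 fibroblast markers tested and all 7 alveolar epithelial markers fell, and all 6 neutrophil markers rose. The summed fibroblast markers ran from 891.5 to 1155 CPM in healthy and from 107.8 to 349.7 CPM in NaCl libraries, and the summed neutrophil markers from 1329 to 9787 and from 14640 to 139400 CPM. Of the wider fibroblast list, PDGFRA was listed at 0 throughout, and of the alveolar list SFTPC. Some library titles end in PD or PG, letters the labels do not explain: 5 healthy, 3 NaCl and 2 MSC titles do, and none of the ceftaroline groups. With an ending, the 57 genes summed to medians of 11430 CPM in healthy and 20840 CPM in NaCl libraries. Without one, the medians were 13350 and 12730 CPM, so their summed level was higher in NaCl lungs only with an ending. The sum does not stand for every part of the set. Over all libraries of each group, fibronectin and matricellular genes had medians of 4807 CPM in healthy and 8480 CPM in NaCl lungs. Basement membrane collagens had 938.8 and 1739 CPM, but fibrillar collagens had 1844 and 1131 CPM and laminins 1208 and 659.5 CPM. One NaCl library also carries a mark (S00) that all healthy libraries share. The part of cell makeup in the matrix results was not tested, while the title endings are followed below.

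Values below are the deposited reads after scaling by size factors (normalized reads), and a log2 fold change is on log2(normalized reads + 1), which understates the change of genes near 0. A gene was called when limma, a linear model fitted across all genes, gave an adjusted p under 0.05. Levels over all 5 groups are in CPM.

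The pneumonia of NaCl-treated rabbits came with a split in the matrix genes. THBS1, FN1, VCAN, EMILIN2, LOXL4, COL28A1, COL11A2, COL4A1 and COL4A2 rose, while COL1A2 and COL3A1, 4 of 7 laminins, the COL4A3, COL4A4 and COL4A6 chains, FBLN2, FBLN5 and FBLN7, and the small proteoglycans DCN and LUM fell. Of 57 genes, 50 reached 10 normalized reads in 7 or more of the 14 libraries and were tested, and 34 were called. Of these, 9 rose and 25 fell, and 14 had groups that did not overlap. Over all genes, 60.6% were called, 29.7% higher and 30.9% lower, and 29.9% did not overlap, so the 68% called and 28% not overlapping here are near the share of all genes. The balance was not even: 18% of the matrix genes tested rose and 50% fell, with a median log2 fold change of -0.75 against 0.00 over all genes. At an unadjusted p under 0.05, limma had 35 of the 50 (70%), against 64.1% of all genes. edgeR called 29 of the 50, without COL6A2, COL14A1, LAMA4, SPARC and FBLN5, DESeq2 called 31, and the authors' deposited table has 31. Scaling to total reads, added after the values were seen, moved the median of all genes by -0.45 and gave 6 higher and 28 lower. With that scaling, 1476 of all 9545 genes tested were called higher and 4342 lower, so all genes shifted the same way.

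**Figure D1:**
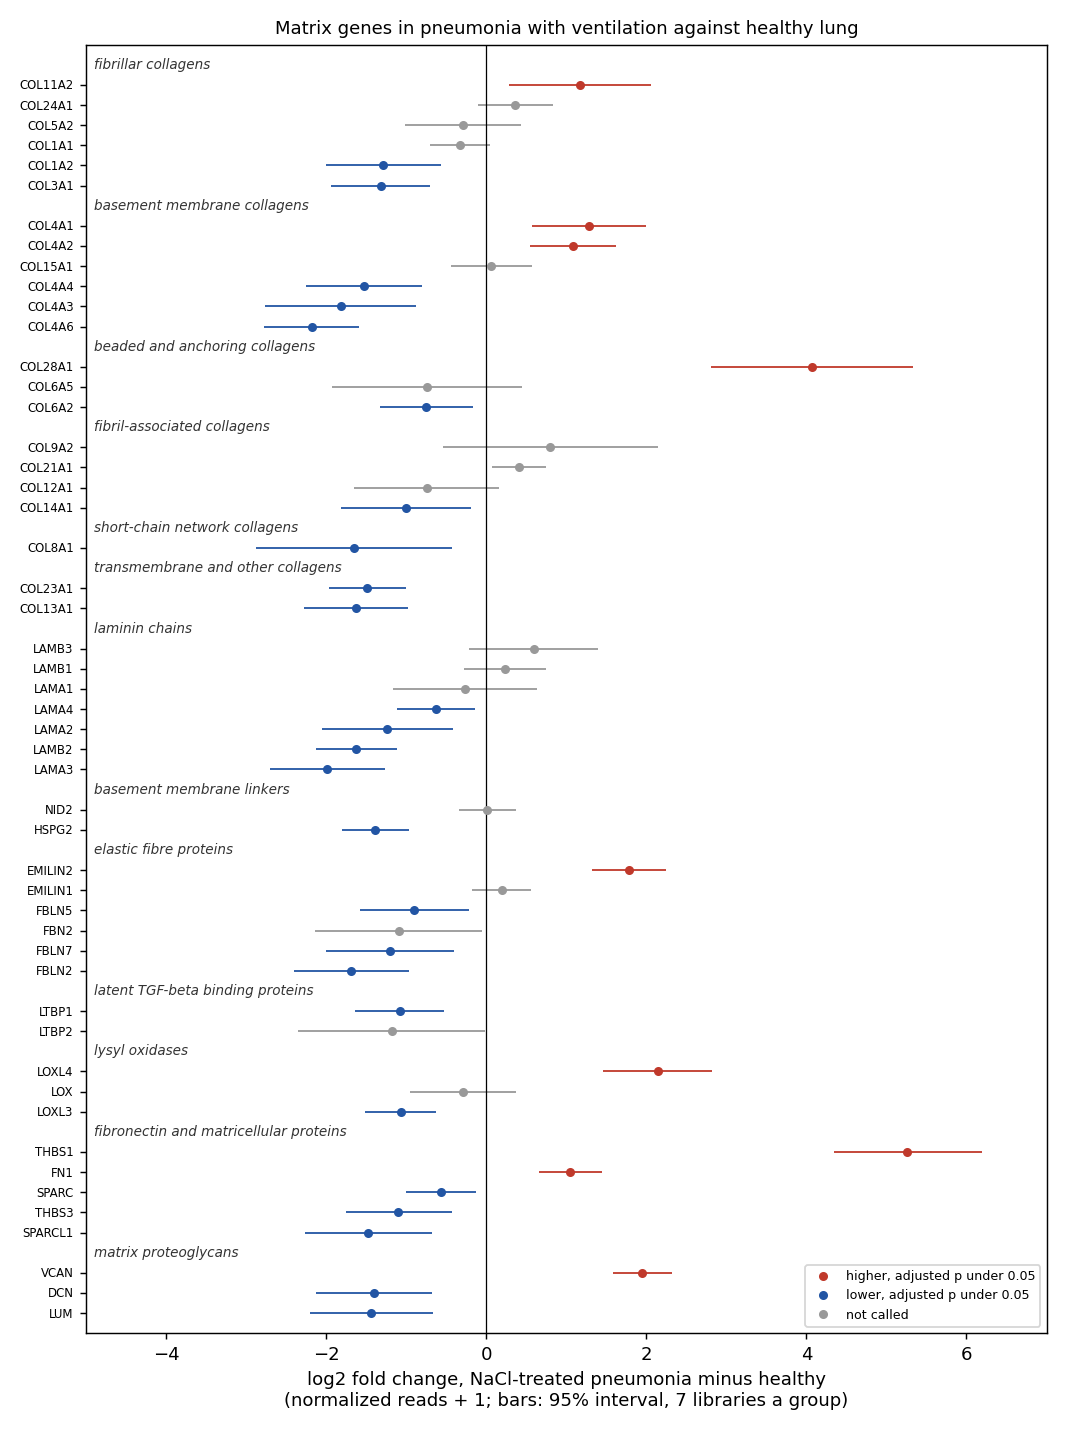
Log2 fold change of the 50 tested matrix genes in NaCl-treated pneumonia against healthy lung (x axis), grouped by role; points are limma estimates, bars 95% intervals (7 libraries a group), red higher, blue lower, grey not called. THBS1 stands furthest to the right at 5.26 and COL4A6 furthest to the left at -2.18, and most groups hold more blue than red points.

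Of the 6 fibrillar collagens tested, 1 rose, 2 fell and 3 were not called. COL1A1 and COL1A2 encode the partner chains of type I collagen, the main fibril of the interstitium. COL1A1 had 3972 normalized reads in the lowest, 4446 in the median and 5139 in the highest healthy library, and 2347, 3465 and 6937 in NaCl libraries. Its groups overlapped, since 1 NaCl library lay above every healthy one, and its log2 fold change of -0.33 (SE 0.19) did not pass in limma (adjusted p = 0.141). COL1A2 ran from 3870 over 4300 to 5698 in healthy and from 714.4 over 2075 to 5170 in NaCl libraries. It fell by 1.29 on the log2 scale (SE 0.37, limma adjusted p = 0.00644), lower than the healthy mean in 6 of 7 NaCl libraries.

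COL3A1, the type III chain that copolymerizes with type I, had 4502, 5702 and 9341 normalized reads in the lowest, median and highest healthy library and 1055, 2265 and 5654 in NaCl libraries. All 7 NaCl libraries lay below the healthy mean, with an overlap at the top, and the gene fell by 1.32 (SE 0.31, limma adjusted p = 0.00197). COL11A2, a minor fibril chain best known from cartilage, ran from 1.805 over 7.434 to 10.49 normalized reads in healthy and from 5.282 over 15.5 to 45.4 in NaCl libraries. It rose by 1.17 with overlap (SE 0.45, limma adjusted p = 0.0353), a call lost in 6 of the 14 fits that left out 1 library each and when scaled to total reads (0.76). COL11A2 met the filter on low values mainly through the NaCl libraries, of which 5 lay above every healthy one. Its call was thus partly bound up with being tested. COL24A1 (0.36) and COL5A2 (-0.29) were not called.

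Type IV collagen chains moved in opposite directions. COL4A6 ran from 576.8 over 785.5 to 916.9 normalized reads in healthy and from 66.04 over 165.1 to 405.5 in NaCl libraries. The groups did not overlap, and the fall was 2.18 on the log2 scale (SE 0.30, limma adjusted p = 1.8e-05). COL4A3 fell by 1.82 and COL4A4 by 1.53, also without overlap. COL4A2 ran from 3102 over 4193 to 4827 in healthy and from 4057 over 10200 to 14460 in NaCl libraries, and rose by 1.08 (SE 0.27, limma adjusted p = 0.00281) in 6 of 7. COL4A1 rose by 1.28. Scaled to total reads, COL4A1 (0.82) and COL4A2 (0.63) were no longer called. COL15A1, a basement membrane collagen of capillaries and muscle, stood at 0.06 and was not called.

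Of the 7 laminin chains tested, 4 fell and none rose. LAMB2, the beta chain of adult vascular and epithelial basement membranes, had 3229, 4307 and 4559 normalized reads in the lowest, median and highest healthy library and 559.4, 1500 and 2380 in NaCl libraries. No NaCl library reached the lowest healthy one, and the gene fell by 1.63 (SE 0.26, limma adjusted p = 5.9e-05). LAMA3, the epithelial alpha chain that anchors hemidesmosomes, fell by 1.99, again without overlap. LAMA2, the alpha chain of muscle and nerve, fell from a median of 1071 to 380.6 normalized reads, and LAMA4, an endothelial chain, fell by 0.63. LAMB3 (0.59), LAMB1 (0.23) and LAMA1 (-0.27) were not called.

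HSPG2, which encodes perlecan, the heparan sulfate proteoglycan that ties laminin and collagen sheets together, ran from 1510 over 2029 to 2403 in healthy and from 431.1 over 752.7 to 1169 in NaCl libraries. The groups did not overlap, and it fell by 1.39 (SE 0.22, limma adjusted p = 4.9e-05). NID2, a nidogen with the same linking role, stood at 0.01 (95% interval -0.34 to 0.37).

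Among other collagens, COL28A1, a beaded collagen known from peripheral nerve, had 0, 3.61 and 4.956 normalized reads in the lowest, median and highest healthy library and 15.5, 46.1 and 301.1 in NaCl libraries. Every NaCl library exceeded every healthy one, and its log2 fold change was 4.07 (SE 0.64, limma adjusted p = 5.8e-05) from a level close to 0. It passed the filter on low values only through the NaCl libraries, where it is high, so its call and its lack of overlap were bound up with being tested. COL6A2, a microfibril chain of type VI, ran from 7087 over 10410 to 13930 in healthy and from 3055 over 5984 to 12700 in NaCl libraries, and fell by 0.75 with overlap. The membrane-bound collagens COL13A1 and COL23A1 fell by 1.63 and 1.49, both without overlap: COL23A1 ran from 544.6 over 817.6 to 967.6 in healthy and from 174.3 over 256.6 to 522.1 in NaCl libraries (SE 0.25, limma adjusted p = 8.8e-05). COL8A1, a short-chain collagen of vessels, ran from 56.39 over 117.2 to 272.6 in healthy and from 3.832 over 62.3 to 101.1 in NaCl libraries, and fell by 1.66. COL14A1, which sits on fibril surfaces, ran from 220.7 over 318.4 to 395.1 and from 28.66 over 186.5 to 400.9, and fell by 1.01. Both had overlapping groups, and COL14A1 lost its call in 9 of the 14 fits without 1 library.

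Of 6 elastic fibre proteins tested, 3 fell, 1 rose and 2 were not called. FBLN2, a fibulin that bridges elastin and basement membranes, ran from 996.5 over 1957 to 2428 in healthy and from 176.9 over 496 to 1508 in NaCl libraries. It fell by 1.69 (SE 0.36, limma adjusted p = 0.000904), below the healthy mean in all 7. FBLN7 fell by 1.20 and FBLN5, needed for elastic fibre assembly, by 0.90. EMILIN2 ran from 472.8 over 774 to 828.6 in healthy and from 1145 over 2554 to 4354 in NaCl libraries. It rose without overlap by 1.78 (SE 0.24, limma adjusted p = 1.1e-05), while its relative EMILIN1 stood at 0.19 and FBN2, a fibrillin, at -1.09, both not called.

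Cross-linking and growth factor storage genes were also split. LOXL4, a lysyl oxidase, had 5.643, 12.39 and 15.94 normalized reads in the lowest, median and highest healthy library and 21.18, 56.13 and 90.64 in NaCl libraries. It rose by 2.14 (SE 0.35, limma adjusted p = 7.6e-05) with no overlap. LOXL3 fell by 1.07, from 310.5, 390.7 and 478.9 to 83.2, 176.9 and 289.9, again with no overlap (SE 0.23, limma adjusted p = 0.00076). LOX itself stood at -0.29 and was not called. LTBP1, which holds latent TGF-beta in the matrix, ran from 1355 over 1985 to 2347 in healthy and from 376.3 over 786.8 to 1816 in NaCl libraries and fell by 1.08, with overlap, and LTBP2 stood at -1.18 with an adjusted p of 0.0975 in limma.

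The highest rise of the 50 genes was that of THBS1, a matricellular protein released by platelets and stressed cells and known as an activator of latent TGF-beta. It had 522.2, 794.3 and 1034 normalized reads in the lowest, median and highest healthy library and 5026, 31440 and 78690 in NaCl libraries. The lowest NaCl library lay above every healthy one, and the log2 fold change was 5.26 (SE 0.47, limma adjusted p = 2.7e-07), a 38.4-fold rise. FN1, fibronectin, ran from 11380 over 14260 to 21470 in healthy and from 21230 over 29730 to 40210 in NaCl libraries. It rose 2.07-fold (log2 1.05, SE 0.20, limma adjusted p = 0.000291), above the healthy mean in all 7 NaCl libraries, with an overlap at a single edge.

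The other matricellular genes tested fell: THBS3 by 1.10, SPARC, a collagen chaperone of the matrix, by 0.57, and its relative SPARCL1 by 1.48. SPARCL1 ran from 7875 over 11480 to 18760 in healthy and from 986.8 over 4125 to 8573 in NaCl libraries (SE 0.41, limma adjusted p = 0.00518). THBS4 had too few reads to be tested here, with medians of 0.386 CPM in healthy and 1.95 CPM in NaCl libraries; the authors' deposited table has it higher, at a log2 fold change of 1.76 and an adjusted p of 0.000814. Of the proteoglycans, VCAN (versican, a hyaluronan binder) had 412.5, 574 and 854.1 normalized reads in the lowest, median and highest healthy library and 1367, 2542 and 2994 in NaCl libraries. It rose without overlap by 1.95 (SE 0.19, limma adjusted p = 6.1e-07). The small leucine-rich proteoglycans that regulate fibril width both fell, LUM by 1.44 and DCN by 1.40 (medians 998.7 and 434, SE 0.37, limma adjusted p = 0.00388).

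**Figure D2:**
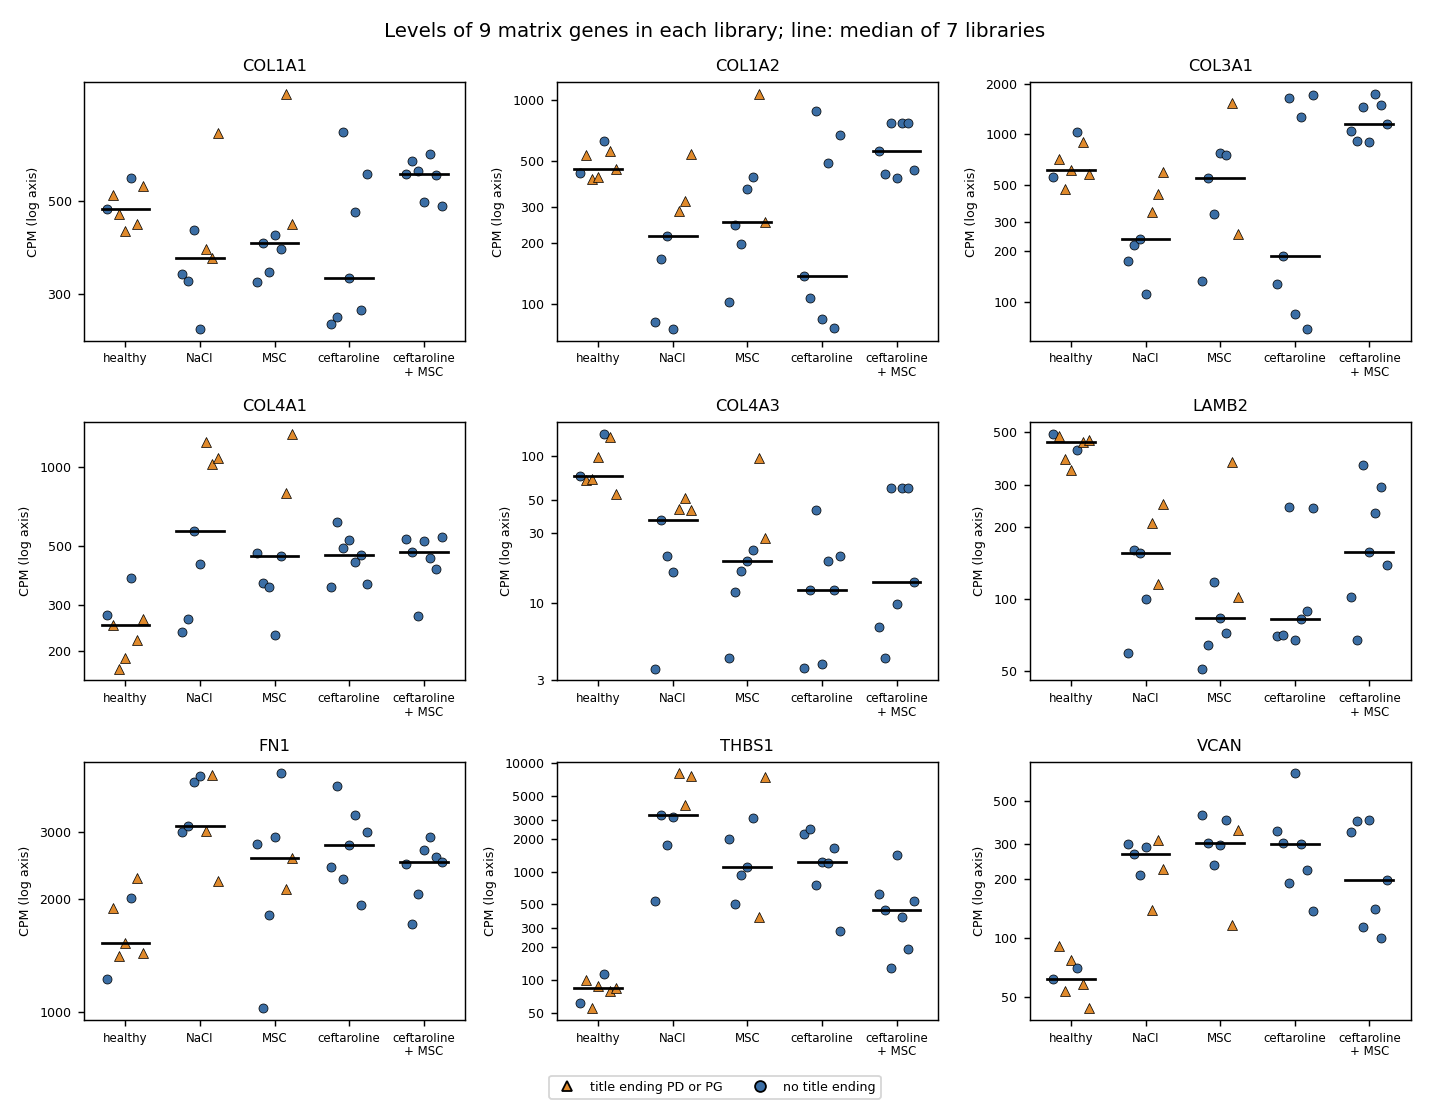
Level of 9 matrix genes in each of the 35 libraries (y axis, CPM on a log axis; x axis, group of 7); triangles are libraries whose titles end in PD or PG, circles the rest, and the line is the median. THBS1 and VCAN separate all healthy from all NaCl libraries, COL4A1 is highest in the 5 pneumonia libraries with an ending, and COL3A1 spans its widest range in the ceftaroline group.

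Several of these results differed between libraries with and without a title ending. COL4A1 had 9758 to 12240 normalized reads in the 3 NaCl libraries with an ending and 2207 to 5494 in the 4 without, against 1624 to 3427 in healthy ones. The 5 pneumonia libraries with an ending, 2 of them from the MSC group, held 796 to 1340 CPM of COL4A1 and the other 23 held 231 to 619 CPM. The healthy library ending in PG, at 221 CPM, was not raised. COL4A2 showed the same division, 1300 to 1780 against 399 to 1090 CPM.

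Of the libraries with an ending, 4 healthy ones end in PD and 1 in PG, and all 3 NaCl ones in PG. In that subset, and in any test that uses it, disease and PD against PG cannot be told apart. Within libraries with an ending, COL4A1 and COL4A2 rose by 2.39 and 1.79, but among the rest their log2 fold changes were 0.17 and 0.45 and neither was called (limma adjusted p = 0.74 and 0.341). COL1A2 and COL3A1 did the reverse. COL1A2 stood at -0.34 with an ending (limma adjusted p = 0.211) and fell by 2.06 without, and COL3A1 stood at -0.49 (limma adjusted p = 0.0975) and fell by 2.04. COL11A2 rose by 1.67 with an ending and stood at 0.40 without, and COL1A1 stood at -0.00 and -0.62 and was called in neither. FBLN5 stood at 0.01 with an ending and fell by 1.56 without. An interaction term in limma, added after these values were seen, found the disease effect to differ with the ending for 9 of the 50 genes (COL1A2, COL3A1, COL4A1, COL4A2, COL12A1, LAMA3, LAMB3, LTBP2 and FBLN5), 18% where 9.69% of all genes tested passed. Its term for COL4A1 was 2.22 (SE 0.41, limma adjusted p = 0.00572), and all 9 terms were positive. The other fibrillar chains tested had positive terms too, without passing: COL5A2 1.76 (limma adjusted p = 0.0516), COL11A2 1.27, COL24A1 1.11 and COL1A1 0.62.

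Of the 34 called genes, 15 were called in the same direction in both subsets. The subsets are parts of the libraries that gave the 34 calls, so this is a description and no independent check. The share of all genes called in both is not given here, so the count cannot be set against it. THBS1, FN1, VCAN, EMILIN2, LOXL4 and COL28A1 (subject to the filter as above) rose in both, and COL4A3, COL4A4, COL4A6, LAMA3, LAMB2, HSPG2, COL13A1, COL23A1 and FBLN2 fell in both. With an ending, 22 genes were called, 12 higher and 10 lower, where 56.2% of all genes were called; without, 27 were, 6 higher and 21 lower, where 38.2% were. The summed neutrophil markers had medians of 49580 CPM in NaCl libraries with an ending and 97650 CPM in those without, and the fibroblast markers 221.5 and 189.3 CPM. The smooth muscle markers differed most, with medians of 2904 and 338.2 CPM, and the endothelial markers had 2617 and 1642 CPM. In the MSC group the same sums had medians of 1816 and 759.6 CPM, and of 2652 and 1304 CPM. What the ending marks, and the part of cell makeup in it, was not tested. Without the NaCl library that shares its mark with the healthy ones, 28 genes were called, 8 higher and 20 lower, where 5584 of all 9545 genes were. In that fit every healthy library and no NaCl library carries the mark, so mark and disease cannot be told apart.

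Pairs of related chains were also read within each library, as the log2 ratio of their reads, which no scaling between libraries can shift. These 4 ratios were chosen after the fold changes were seen, so they are given as a description, with no test. Since gene lengths are not used, only a change of a ratio between groups has meaning. The ratio of COL4A1 to COL4A3 was 1.49 ± 0.56 (SD, n = 7) in healthy and 4.59 ± 0.93 (SD, n = 7) in NaCl libraries. No libraries overlapped, and the difference was 3.11. It was 3.19 in libraries with a title ending and 2.91 in the rest.

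The ratio of LAMB1 to LAMB2 was -1.58 ± 0.22 in healthy and 0.28 ± 0.41 in NaCl libraries (SD, n = 7 each), again without overlap. The difference was 1.93 with and 1.74 without an ending. COL1A1 to COL1A2 was 0.01 ± 0.21 and 0.96 ± 0.69 (SD, n = 7 each), a difference of 0.34 with and 1.44 without an ending. COL4A1 to COL4A2, neighbours that share a promoter region, differed by 0.19 between healthy and NaCl lungs, but by 0.60 in libraries with an ending and by -0.28 in the rest.

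**Figure D3:**
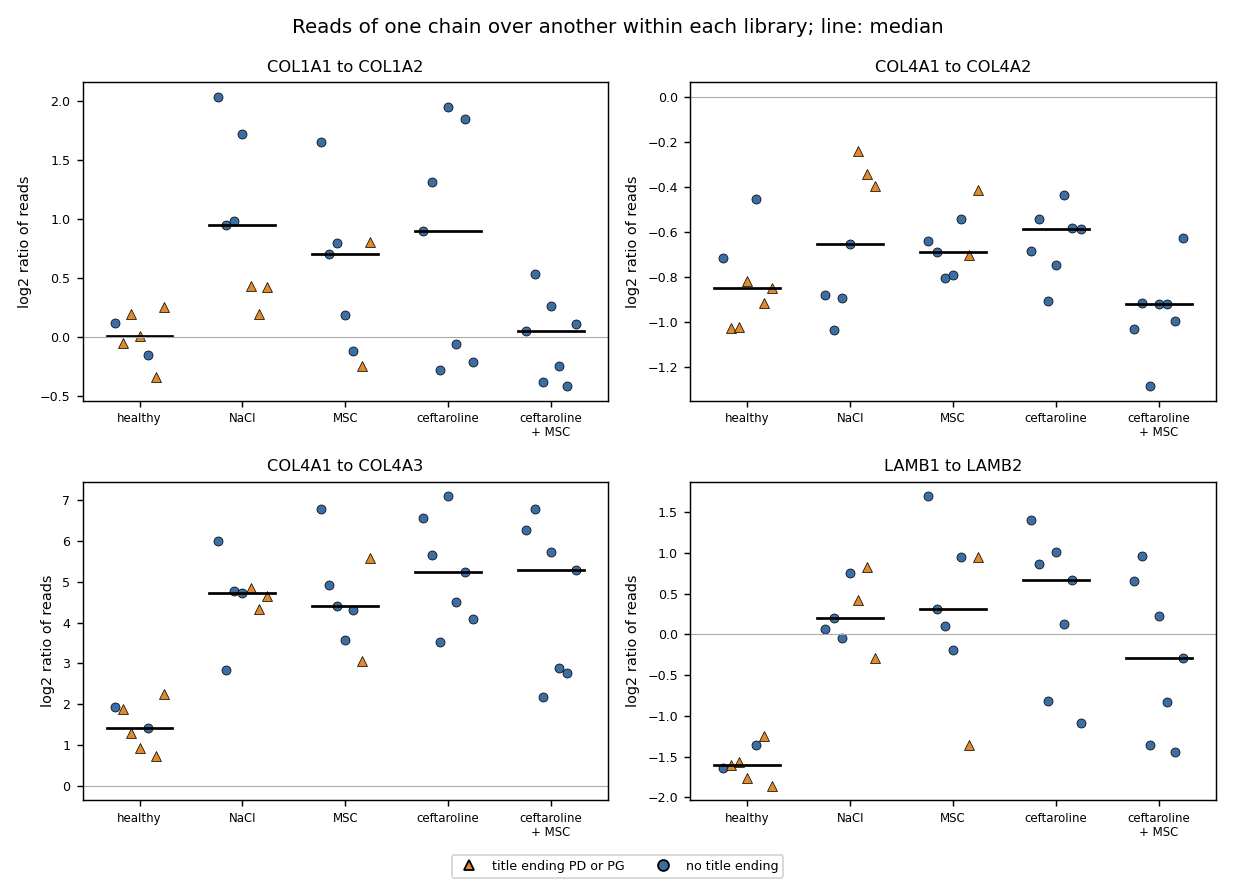
Log2 ratio of the reads of one chain over another within each library (y axis) by group (x axis, 7 libraries each); triangles are libraries with a title ending, circles the rest, lines medians. COL4A1 to COL4A3 and LAMB1 to LAMB2 lie higher in every NaCl library than in any healthy one, and COL1A1 to COL1A2 spreads most in the ceftaroline group, from -0.27 to 1.95.

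Genes that make, store and sense matrix were read from lists of names. Of 16 collagen synthesis and processing genes tested, 5 rose and 5 fell: SEC24D, a coat protein of the vesicles that export procollagen, rose by 1.70 (SE 0.14) and CRTAP, part of the prolyl 3-hydroxylation complex, fell by 1.66 (SE 0.14), with limma adjusted p of 1.3e-07 and 1.6e-07. Of 6 microfibril and elastic fibre associates 4 fell, led by MGP, an inhibitor of calcification, at -2.04. Of 19 matrix receptors, 9 rose and 8 fell: CD44, the hyaluronan receptor, rose by 2.93 and CD36, a thrombospondin receptor, fell by 2.72. Of 13 TGF-beta ligands, receptors and response genes 4 rose and 3 fell, with the repressor TGIF1 at 2.20 and the coreceptor TGFBR3 at -1.78. The median log2 fold changes of these lists were 0.08, -0.74, 0.29 and -0.18, against 0.00 over all genes. Of all genes tested, 29.7% were called higher and 30.9% lower, so 5 of 16 each way is near the share of all genes. Of the other marker lists, 4 of 8 macrophage genes rose, 1 of 7 endothelial genes rose and 4 fell, 1 of 6 smooth muscle genes and the 1 mesothelial gene tested fell, and neither of 2 chondrocyte genes was called. No gene of any of these lists was called in the treatment comparisons that follow.

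The comparison of MSC with NaCl asked whether the cells changed these genes in untreated pneumonia. None of 51 matrix genes tested was called by limma or edgeR, as for 0% of all genes in limma; DESeq2 called LAMB3, and so does the authors' deposited table (log2 fold change -1.32, adjusted p 0.0468). At an unadjusted p under 0.05, limma had 2 of 51 genes, 3.92% against 17.7% of all genes. The median log2 fold change was -0.14 against 0.01 over all genes, and the 7 laminins all had negative values, from -1.06 to -0.08.

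LAMB3, the beta chain that pairs with LAMA3 under epithelia, had 371.1, 735.6 and 2966 normalized reads in the lowest, median and highest NaCl library and 287.1, 406.2 and 751.8 in MSC libraries. The groups overlapped, with all 7 MSC libraries under the NaCl mean, and its log2 fold change was -1.06 (SE 0.39, limma adjusted p = 0.204). COL24A1 ran from 633.2 over 920.7 to 996.5 in NaCl and from 467.8 over 667.2 to 851.6 in MSC libraries, a log2 fold change of -0.39 (limma adjusted p = 0.227). EMILIN1 (842 to 1929 against 808.8 to 2517, medians 1103 and 1790) stood at 0.50, LUM (83.38 to 567.1 against 185.7 to 953.3, medians 335.7 and 728.9) at 0.94, and FN1 (21260 to 40540 against 9757 to 40750, medians 29670 and 24400) at -0.55, all with overlapping groups. These 5 were the genes of lowest p, and no direction passed the test in any.

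Type I collagen gave values of the same kind. COL1A1 ran from 2377 over 3469 to 6945 in NaCl and from 2984 over 3779 to 8530 in MSC libraries, and COL1A2 from 723.6 over 2094 to 5175 and from 948.7 over 2402 to 10090. Their log2 fold changes were 0.16 (95% interval -0.33 to 0.65) and 0.58 (-0.41 to 1.58), and both intervals span a fall and a rise. The highest MSC library in both was replicate 6, which also had the highest fibroblast marker sum of its group, 1030 CPM against 220 to 460 CPM in the other 6. Its alveolar sum was also the highest (18200 against 1410 to 7520 CPM), its neutrophil sum the lowest (2820 against 15600 to 64900 CPM), and its title ends in PG. The part of these was not tested.

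Ceftaroline was compared with the same 7 NaCl libraries, so the values of the MSC and the ceftaroline comparison are not independent. None of 52 genes tested was called by limma or edgeR (0% of all genes in limma), while DESeq2 called THBS1, for which the authors' deposited table has an adjusted p of 0.0505. At an unadjusted p under 0.05 limma had 1 gene, THBS1, 1.92% against 18.3% of all genes, and the median log2 fold change was -0.20 against 0.02. THBS1 had 6340, 38920 and 95630 normalized reads in the lowest, median and highest NaCl library and 3280, 14160 and 28970 in ceftaroline libraries. All 7 ceftaroline libraries lay under the NaCl mean, with overlap, and its log2 fold change was -1.43 (SE 0.59, limma adjusted p = 0.226). With MSC it was -1.18 against the same NaCl libraries. As scaled in the disease comparison, THBS1 had 38920 to 78690 normalized reads in the 3 NaCl libraries with a title ending. The other 4 had 5026 to 31440. No ceftaroline library has such an ending, and limma called no matrix gene among libraries without one either.

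THBS4, another thrombospondin, ran from 2.142 over 23.11 to 29.82 normalized reads in NaCl and from 0.9826 over 4.995 to 28 in ceftaroline libraries, a log2 fold change of -1.28. It met the filter on low values mainly through the NaCl libraries, which held 12.6 or more except for replicate 3. COL4A4 (medians 87.82 and 22.6, -1.20), FBN2 (39.52 and 15.72, -0.90) and LOX (1105 and 696.6, -0.63) followed, with limma adjusted p between 0.292 and 0.38. All 4 had overlapping groups and 6 of 7 ceftaroline libraries under the NaCl mean. COL1A1 (medians 4311 and 3823) and COL1A2 (2581 and 1581) stood at -0.02 (95% interval -0.56 to 0.51) and 0.16 (-1.06 to 1.38), and FN1 (36560 and 32400) at -0.31.

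Fibrillar collagen in the ceftaroline group lay at separate levels. COL3A1 had 127, 186, 1650, 83.8, 1280, 68.5 and 1720 CPM in replicates 1 to 7, and the fibroblast marker sum had 243, 200, 746, 271, 449, 208 and 729 CPM. Replicates 3, 5 and 7 were thus the highest for both, and the alveolar marker sum was highest there too, at 16600, 8430 and 16600 CPM against 1710 to 4870 CPM in the other 4. Their neutrophil sums were the lowest, at 12000, 10200 and 4650 CPM against 27400 to 140000 CPM, and the part of cell makeup was not tested. COL1A2 ran from 76.4 to 884 CPM in the group.

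MSC added to ceftaroline was compared with ceftaroline alone, which asked whether the cells act on top of the antibiotic. No matrix gene of 51 tested was called by limma, edgeR or DESeq2 or in the authors' deposited table, where limma called 0.0403% of all genes, 0.0302% higher and 0.0101% lower. At an unadjusted p under 0.05, limma had 13 genes, 11 higher and 2 lower, 25.5% against 11.5% of all genes tested. The median log2 fold change was 0.39 against 0.00 over all genes, and 34 of 51 genes were positive. Every fibroblast, smooth muscle and alveolar marker tested (6, 6 and 7 genes) also had a positive value and all 7 neutrophil markers a negative one, and the part of cell makeup was not tested. Endothelial markers were 4 positive and 3 negative, and macrophage markers 3 and 5. Against NaCl, fibroblast markers were positive in 6 of 6 with MSC and 4 of 5 with ceftaroline, and neutrophil markers negative in 6 of 6 and 7 of 8. Smooth muscle markers were positive there in 4 of 6 and 0 of 6, and alveolar markers in 2 of 7 each.

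The 5 genes of lowest p were FBLN7, HSPG2, COL24A1, THBS1 and EMILIN1. FBLN7 ran from 8.263 over 17.64 to 42.25 normalized reads with ceftaroline and from 26.26 over 44.51 to 81.97 with MSC added, a log2 fold change of 1.30 (SE 0.37, limma adjusted p = 0.325). HSPG2 had 737.3, 1106 and 1916 normalized reads in the lowest, median and highest ceftaroline library and 1445, 1985 and 3058 with MSC added. Of the 7 ceftaroline libraries 5 lay below the whole range of the combined group, and its log2 fold change was 0.90 (SE 0.26, limma adjusted p = 0.345).

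THBS1 stood at -1.50 (SE 0.54, medians 18680 and 6741), with all 7 combined libraries under the ceftaroline mean. COL24A1 stood at -0.50 (medians 1195 and 844.8) and EMILIN1 at 0.83 (medians 2883 and 4726). All of them overlapped between groups. Both groups with MSC thus had values of COL24A1 below their own control, -0.39 and -0.50, and of EMILIN1 above it, 0.50 and 0.83, from comparisons that share no library, but none passed the test. COL24A1 and EMILIN1 were picked for their low p. Of 50 genes tested in both comparisons, 18 had opposite signs, so a shared sign was common.

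COL3A1 and COL1A2 had the highest log2 fold changes of the 51 genes, followed by FBLN7 (1.30), FBN2 (1.20) and COL4A4 (1.07). Of 6 fibrillar collagens 4 were positive and 2 negative, with a median of 0.74, and of 6 elastic fibre proteins 5 were positive, with a median of 0.88. COL3A1 had 1085, 2901 and 26340 normalized reads in the lowest, median and highest ceftaroline library and 13800, 17500 and 26990 with MSC added. Of the ceftaroline libraries 4 lay below the whole combined group and 3 within it, so the log2 fold change of 1.84 has a wide SE of 0.73 (limma adjusted p = 0.426). COL1A2 (medians 2117 and 8521) stood at 1.36 (SE 0.54), COL5A2, a fibril-nucleating chain (1667 and 4029), at 0.92, and COL1A1 (5045 and 8925) at 0.56 (SE 0.22), with FN1 (42760 and 37950) at -0.20. In CPM, the combined group held the highest median of COL3A1 (1150 against 609 in healthy, 552 in MSC, 236 in NaCl and 186 in ceftaroline) and of COL1A2 (560 against 458, 253, 216 and 137), and the ranges of neighbouring groups in these orders overlapped.

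The ratio of COL4A1 to COL4A2 was -0.64 ± 0.15 (SD, n = 7) with ceftaroline and -0.96 ± 0.20 (SD, n = 7) with MSC added, a difference of -0.32 with overlapping libraries, also given with no test. COL1A1 to COL1A2 stood at 0.78 ± 0.97 with ceftaroline and at -0.01 ± 0.35 with MSC added (SD, n = 7 each).

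**Figure D4:**
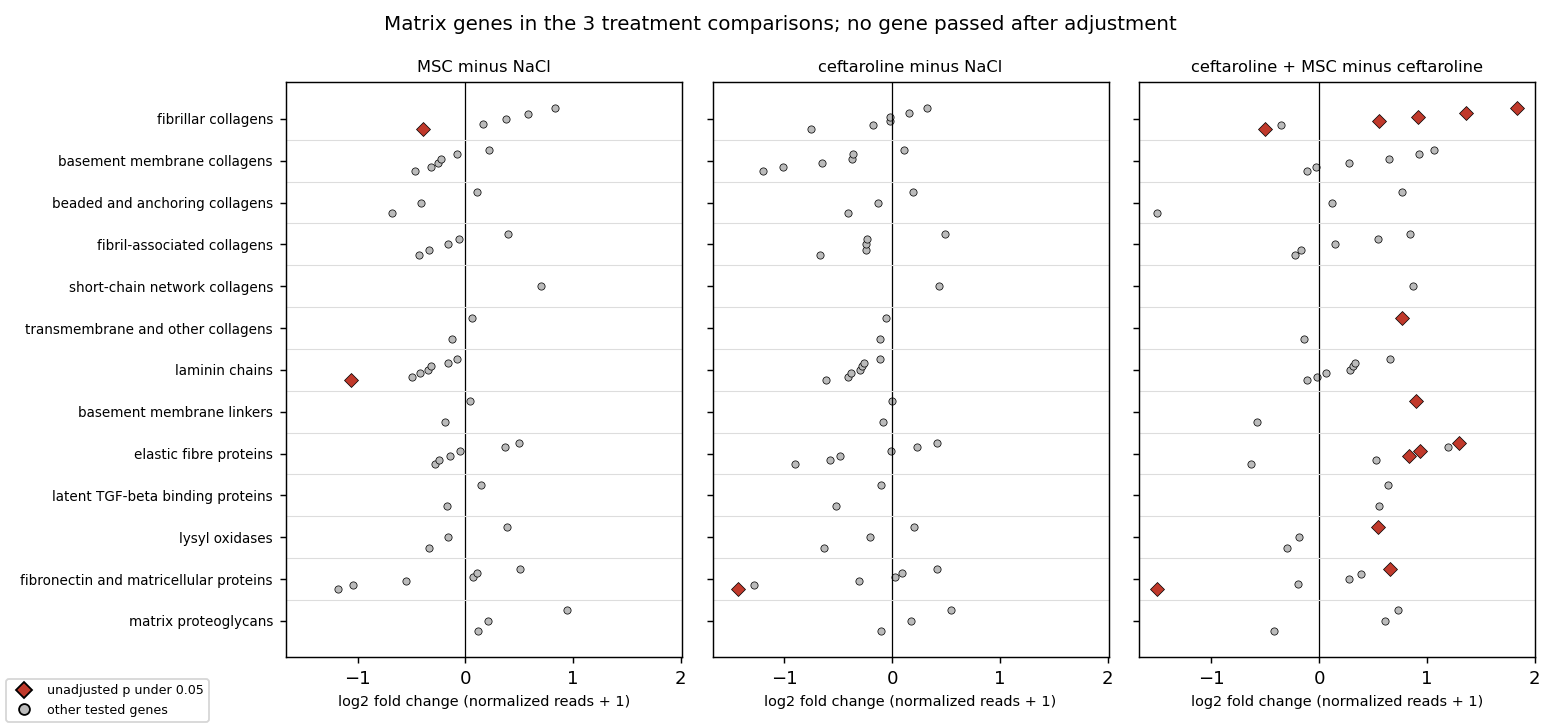
Log2 fold change (x axis) of each tested matrix gene, by role (y axis), for MSC against NaCl, ceftaroline against NaCl, and ceftaroline with MSC against ceftaroline; red diamonds are genes with an unadjusted p under 0.05 (2, 1 and 13), none of which passed after adjustment. In the right panel the fibrillar and elastic fibre genes lie mostly to the right of 0, with COL3A1 at 1.84.

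Whether the effect of MSC differed with and without ceftaroline was tested as the difference of both log2 fold changes. No matrix gene of 50 was called, against 0.265% of all genes, and edgeR also called none. LAMB3 (-1.06 without and -0.02 with ceftaroline), LAMB2 (-0.49 and 0.66) and HSPG2 (0.04 and 0.90) had an unadjusted p under 0.05 in limma (0.04, 0.0467 and 0.0272), with adjusted p from 0.695 to 0.774; over all genes 6.45% had such a p. For COL3A1, the MSC values were 0.83 without and 1.84 with ceftaroline.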

How the data were processed

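Per the labels, stranded mRNA libraries were read over 75 bp from 1 end; demultiplexing used bcl2fastq2 2.18.12 and trimming Cutadapt 1.15. TopHat2 2.1.1, featureCounts 1.5.2 and DESeq2 1.24.0 stand in the submitters' processing notes without a role, and no source used here names a build or annotation. The authors deposited 4 tables of 14 libraries, which per the file headers hold a signal (reads divided by a size factor), a log2 fold change with its SE, a Wald score, and a p-value. Of these signal values 100% were whole multiples of 1 read (relative tolerance 1e-06), so reads were recovered.

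limma 3.58.1 in R 4.3.3 was fitted in each table on log2(value + 1) with a trend, for genes of at least 10 in 7 of 14 libraries, two-sided, Benjamini-Hochberg over all genes tested. edgeR 4.0.16 and DESeq2 1.42.0 on recovered reads, filters, pseudocounts, thresholds, title endings and left-out libraries were alternatives. CPM used TMM factors over 35 libraries. Fits were tested on simulated data. Rabbits are replicates, so p-values measure the spread between them. Members and lists were chosen with earlier results of these data known. In the disease comparison any called gene may be named, with library values for COL1A1, COL1A2, FN1 and the called gene of lowest p per role and direction; elsewhere the 5 of lowest p. LAMB1, COL5A2 and other uncalled genes, and COL3A1 outside the disease comparison, were named after their values were seen.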

Additional observations from a re-analysis of the deposited data

Results flagged for a closer look

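A library that stood far from the other 6 of its group was looked for in 103 pairs of gene and group, and 4 pairs (3.88%) had one, where chance flags about 1 in 20. SPARCL1 had 987 normalized reads in NaCl replicate 1, against 3890 to 8570 in the others. COL11A2 had 1.81 in healthy replicate 4, against 6.13 to 10.5. COL1A1 had 8530 in MSC replicate 6, against 2980 to 4200, in the table of MSC and NaCl. THBS4 had 2.14 in NaCl replicate 3, against 12.6 to 29.8, in the table of ceftaroline and NaCl.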

How the results depend on the processing

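Of 50 matrix genes, 34 were called in the disease comparison. The count was 28 to 36 when each library was left out in turn, 29 with edgeR, 31 with DESeq2, and 22 (12 higher, 10 lower) in libraries with a title ending. In limma without 1 library in turn, 7 genes lost the call: COL14A1 and LAMA4 in 9 of 14 fits, COL6A2 in 8, SPARC and FBLN5 in 7, COL11A2 in 6 and COL8A1 in 3. FBLN5 stood at 0.01 in libraries with an ending. Scaling to total reads, chosen after seeing the data, moved the median of all genes by -0.45 and left 6 higher and 28 lower. Over all 9545 genes tested, it called 1476 higher and 4342 lower. With it, COL4A1 (0.82), COL4A2 (0.63) and COL11A2 (0.76) were not called, and COL1A1 was (-0.79). The MSC and ceftaroline counts of 0 became 1 in each with DESeq2 (LAMB3 and THBS1). COL1A1 with ceftaroline, at -0.02, was 0.05 with edgeR, 0.01 with DESeq2 and in the fit of all 35 libraries, 0.22 scaled to total reads and 0.20 without title endings. Leave-one-out ranges that crossed 0 were -0.18 to 0.13 for COL1A1 and -0.17 to 0.42 for COL1A2 with ceftaroline, -0.02 to 0.31 for COL1A1 with MSC, and for the log2 ratios -0.09 to 0.05 (COL4A1 to COL4A2), -0.29 to 0.33 (COL4A1 to COL4A3) and -0.15 to 0.36 (LAMB1 to LAMB2) with MSC, and -0.07 to 0.06 and -0.15 to 0.26 (COL4A1 to COL4A2, LAMB1 to LAMB2) with ceftaroline. The cause was not tested. A replicate block by title number called 0 matrix genes in each of the 3 treatment comparisons, with 7, 0 and 17 at an unadjusted p under 0.05. Same-numbered libraries deviated together, by a correlation over only 0.1, in 2 of 3, 1 of 4 and 4 of 7 pairs. The best match had the same number in 1 of 3, 1 of 4 and 2 of 7. So few pairs cannot tell whether the numbers pair the samples, and healthy title numbers allow no block. Low reads limit COL28A1, COL11A2, LOXL4, FBLN7 and THBS4.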
